A study of Mus musculus with 8 samples.

Results

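The genes described here import cystine and make, recycle, break down and export glutathione. They were chosen by symbol, and all 9 were found among the 22180 genes with a probe set of a single gene symbol: the cystine importer subunits Slc7a11 and Slc3a2, the synthesis genes Gclc, Gclm and Gss, the recycling enzyme Gsr, the glutathione-cleaving enzyme Ggt5 and the exporters Abcc1 and Abcc4. Their transcripts were measured on 8 Affymetrix arrays of cultured mouse melanocytes, the pigment cells of the skin, with 2 arrays in each of 4 groups. KO cells carried floxed Atg7 alleles (Atg7 f/f) and Cre recombinase driven by the tyrosinase promoter (Tyr::Cre), so deletion was directed to pigment cells, and were autophagy deficient. WT cells carried the same floxed alleles without Cre and were autophagy competent. The 4 groups were KO with UVA-1 at 20 J/cm², KO with sham treatment, WT with UVA-1 at that dose and WT with sham treatment. All cells came from pups aged 1 to 5 days, were labelled female, were cultured for 22 days and were lysed 6 h after treatment. The submitters call the arrays of a group biological duplicates, and the labels number them 1 and 2 without saying what a number stands for.

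Glutathione is the main thiol antioxidant of cells, and its synthesis is usually limited by the supply of cysteine. Slc7a11 and Slc3a2 together form the cystine/glutamate exchanger, Gclc and Gclm form the ligase of the rate-limiting synthesis step, Gss completes the molecule and Gsr reduces it again after oxidation. In pigment cells cysteine is also used to make pheomelanin, the yellow to red pigment, and long-wave ultraviolet light is known to oxidise cell components. The transcription factor NRF2 is known to act through antioxidant response elements, and ATF4, a factor of the amino acid and unfolded protein responses, through its own response elements.

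Promoter windows of 250 bases before the annotated start were available for 5 of the 9 genes, from RefSeq on GRCm38.p6. The windows of Slc7a11 (chr3:50443614-50443863, minus strand) and Gclm (chr3:122245307-122245556, plus strand) are shown because transcripts of both were higher after UVA-1 in every pair of arrays, and because they hold different motifs. Capitals mark matches to the ATF4 response element TGATGNAA in Slc7a11 and to the antioxidant response element core TGACNNNGC in Gclm.
Slc7a11: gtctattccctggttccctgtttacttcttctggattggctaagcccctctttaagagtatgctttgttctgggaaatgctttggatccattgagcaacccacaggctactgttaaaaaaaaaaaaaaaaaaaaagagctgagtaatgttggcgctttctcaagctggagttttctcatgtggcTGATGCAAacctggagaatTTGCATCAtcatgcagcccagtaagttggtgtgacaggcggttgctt
Gclm: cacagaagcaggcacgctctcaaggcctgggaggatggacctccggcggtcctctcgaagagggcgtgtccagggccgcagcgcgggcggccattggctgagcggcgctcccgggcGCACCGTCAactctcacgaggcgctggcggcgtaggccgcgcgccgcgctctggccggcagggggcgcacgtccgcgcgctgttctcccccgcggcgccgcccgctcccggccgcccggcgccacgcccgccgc
The Slc7a11 window held the ATF4 letters on each strand, at 66 to 59 and at 47 to 40 bases before the start, the second as the reverse complement. The letters occurred in 1134 of 32851 mouse promoter windows of that length (3.45%) and on both strands in 6 of them (0.0183%). The Gclm window held the antioxidant core on the reverse strand, 134 to 126 bases before the start, letters found in 10.2% of windows. Each of the 2 windows of Abcc4 also held that core once, and the windows of Slc3a2 and Gss held neither motif. An AP-1 motif, TGANTCA, which reads alike on both strands and occurred in 6.75% of windows, was in none of the windows of these genes. Neither the match nor its absence says whether a factor binds there.

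Values below are linear intensities after robust multi-array averaging (RMA), and differences are log2 UVA minus sham or KO minus WT. A level can be compared between arrays for 1 probe set, not between probe sets. Array medians over all 41345 probe sets were 110 to 115. The markers below are set against another value, the median of the 22180 genes on each array, which was higher. Arrays grouped first by replicate number: the numbers separated on the first principal component, with 77.7% of the variance, while sham and UVA arrays of 1 genotype and number correlated at 0.996 or more. All 12 melanocyte markers were above the array median on every array. Fibroblast markers were present too: 11 of 12 lay above the median, and their summed intensity was 51939 to 54999 on the arrays of number 1, 21105 and 22812 in KO of number 2, and 9286 and 10691 in WT of number 2. All 6 myeloid and 4 of the 5 measured keratinocyte markers were below the median on every array. Of 6 endothelial markers 3 or 4 lay above it, with sums of 1504 to 1801 in number 1 and 1097 to 1226 in number 2, and of 4 measured Schwann cell markers 2 or 3 lay above it, with sums of 1470 to 1542 in number 1 and 863 to 1132 in number 2. In bulk RNA, fewer cells of a type and less RNA per cell cannot be told apart. Atg7, which encodes an enzyme needed for autophagosome formation, read 804 and 602 in KO UVA, 831 and 598 in KO sham, 1004 and 832 in WT UVA, and 989 and 859 in WT sham. It was 0.39 lower in KO on the log2 scale (difference -0.39, SE 0.07, limma adjusted p = 0.297 with the replicate number as a block). Which exons its probes cover was not known here, so the probe set may not report the deletion.

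The comparison of UVA-1 with sham asks how the pathway responded to irradiation. Slc7a11, Gclc, Gclm and Gsr read higher after UVA-1 in both genotypes and both replicate numbers, by 2.64-fold for Slc7a11 and by 1.41 to 1.46-fold for the other 3 on average. In limma without a block none of the 22180 genes passed at an adjusted p of 0.05 (percent called 0.0; 401 genes, 1.81%, and 3 of the 9 had an unadjusted p under 0.05). With the replicate number as a block, Gclm rose and was 1 of 3 genes called higher (0.0135%). The sham and UVA array of 1 genotype and 1 number are here called a culture; a shared origin is not stated in the labels. With the culture as a block, Slc7a11, Gclc, Gclm and Gsr rose, 4 of 9 against 0.239% of all genes called higher (0.437% in either direction). That fit has 2 residual degrees of freedom. Leaving out any 1 of the 4 cultures left 1 residual degree of freedom and 0 calls, with adjusted p of 0.527 or more for these genes, while their differences kept their direction. UVA was higher than sham in all 4 pairs of arrays for 6 of the 9 genes, these 4 and both exporters, and for 10.6% of all genes. Of 12 fibroblast markers 10 were lower after UVA-1, with a median difference of -0.10, and their part in these values was not tested.

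Slc7a11 (probe set 17405082), the transporting subunit of the cystine/glutamate exchanger, read 3070 and 3258 in KO UVA, 1561 and 1087 in KO sham, 2463 and 2828 in WT UVA, and 1160 and 730 in WT sham. All 4 UVA arrays lay above all 4 sham arrays, a pattern shown by 1.23% of all genes. The difference was 1.40 (SE 0.14, limma adjusted p = 0.00788 with the culture block, 0.134 with the replicate block and 1 without a block), and it ranked 2 of 22180 from the highest. UVA over sham was 1.97-fold in KO number 1, 3.0-fold in KO number 2, 2.12-fold in WT number 1 and 3.87-fold in WT number 2, so both cultures of number 2 showed the larger ratio and the lower sham level. In order from the highest, the groups were KO UVA, WT UVA, KO sham and WT sham. KO UVA and WT UVA did not overlap but differed by 0.26 (SE 0.21, limma adjusted p = 0.957 with the replicate block), and the KO sham and WT sham arrays overlapped. These are sets of 2 arrays, and the share of all genes without such overlap was not counted. Leaving out 1 culture moved the UVA difference between 1.18 and 1.62.

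A second Slc7a11 probe set (17397421) was dim, below the array medians throughout. It read 47 and 47 in KO UVA, 31 and 28 in KO sham, 36 and 35 in WT UVA, and 29 and 20 in WT sham. Its UVA arrays also all lay above its sham arrays, by 1.53-fold, against 2.64-fold for the probe set used. Averaging both probe sets gave a difference of 1.01.

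Slc3a2 (probe set 17362453), the heavy chain that carries the exchanger and several other amino acid transporters to the cell surface, read 7103 and 7590 in KO UVA, 6018 and 7107 in KO sham, 6962 and 8609 in WT UVA, and 6346 and 8644 in WT sham. The UVA and sham ranges overlapped in both genotypes. The difference was 0.12 (SE 0.04, 95% interval 0.03 to 0.20, limma adjusted p = 0.255 with the culture block), against 1.40 for its partner. Of the pair of subunits, Slc7a11 alone was called, and the difference between their responses was not tested.

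**Figure D1:**
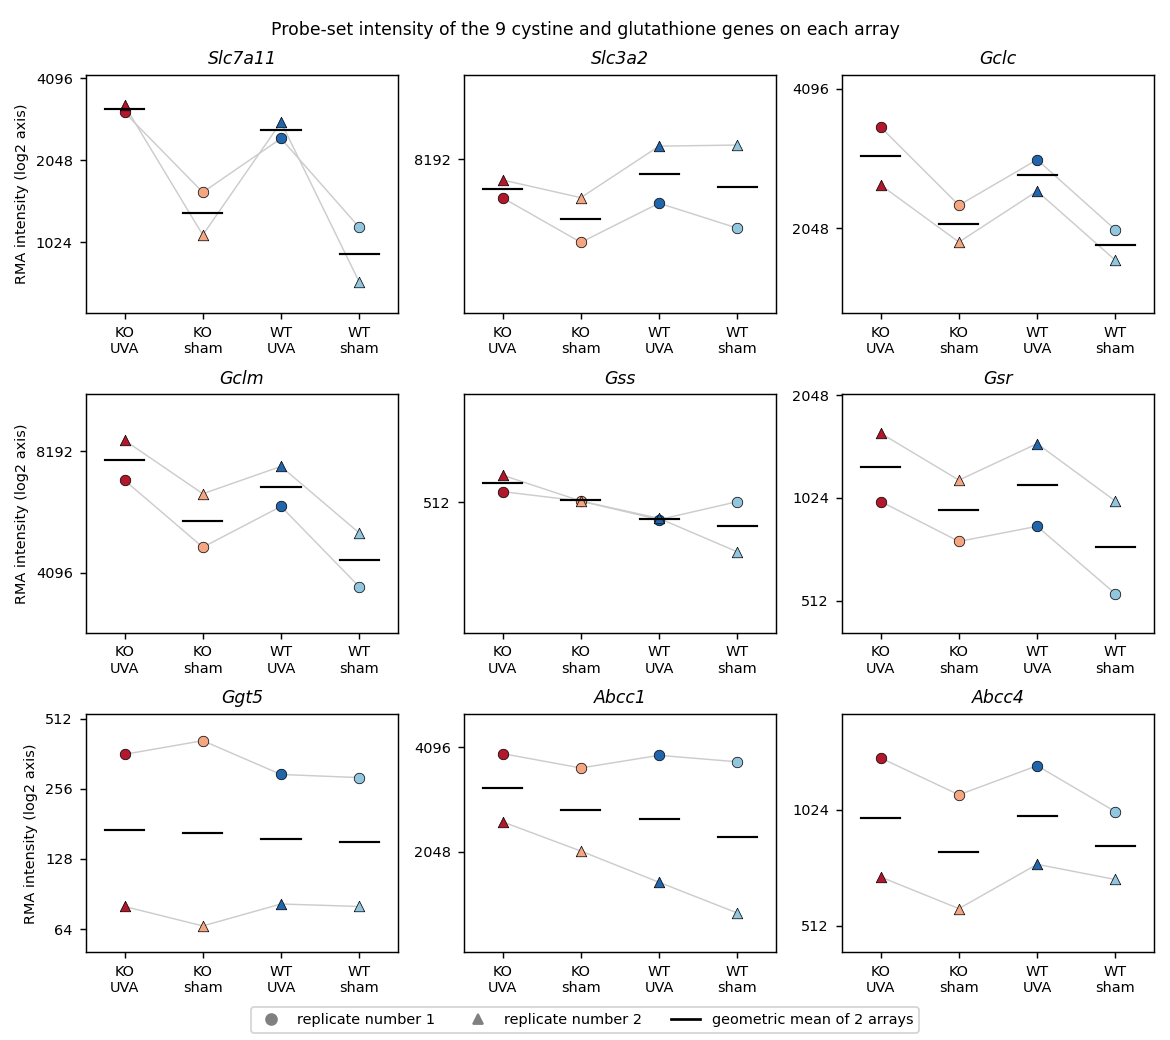
Intensity of the 9 genes on each of the 8 arrays (vertical axis on a log2 scale, with its own range in each panel), by group; circles are replicate number 1, triangles number 2, grey lines join arrays of 1 number and black bars are geometric means of 2 arrays. Slc7a11 and Gclc show UVA arrays above all sham arrays, and the numbers lie apart for Slc3a2, Gsr, Ggt5, Abcc1 and Abcc4. The gap between the numbers is very small for Slc3a2 (7107 against 7103) and Gsr (1003 against 1000).

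Gclc (probe set 17519579), the catalytic subunit of glutamate-cysteine ligase, read 3386 and 2538 in KO UVA, 2295 and 1910 in KO sham, 2880 and 2462 in WT UVA, and 2032 and 1745 in WT sham. Its UVA arrays all lay above its sham arrays. The difference was 0.49 (SE 0.04, limma adjusted p = 0.00649 with the culture block, 0.15 with the replicate block and 1 without a block), and the 4 pairs gave ratios of 1.33 to 1.48. In order from the highest, the groups were KO UVA, WT UVA, KO sham and WT sham, and the genotypes overlapped within each treatment.

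Gclm (probe set 17402283), the modifier subunit that raises the activity of the ligase, read 6949 and 8730 in KO UVA, 4744 and 6437 in KO sham, 5988 and 7523 in WT UVA, and 3788 and 5147 in WT sham. Within a replicate number every UVA array was above both sham arrays, whereas across numbers the treatments overlapped. The difference was 0.55 (SE 0.04, limma adjusted p = 0.0015 with the culture block, 0.0338 with the replicate block and 1 without a block), with ratios of 1.36 to 1.58 in the 4 pairs. Leaving out 1 array ended the call of the replicate block, with limma adjusted p between 0.311 and 0.7. The groups stood in the same order as for the catalytic subunit, KO UVA, WT UVA, KO sham and WT sham, with neighbouring ranges overlapping.

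Gss (probe set 17393288), which encodes glutathione synthetase and joins glycine to the dipeptide that the ligase makes, read 530 and 559 in KO UVA, 514 and 514 in KO sham, 484 and 486 in WT UVA, and 513 and 436 in WT sham. All 8 arrays lay within a narrow range and the WT UVA arrays lay between the WT sham arrays. The difference was 0.06 (SE 0.06, 95% interval -0.09 to 0.21, limma adjusted p = 0.786 with the culture block).

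Gsr (probe set 17500478), glutathione reductase, read 1000 and 1584 in KO UVA, 764 and 1155 in KO sham, 846 and 1477 in WT UVA, and 537 and 1003 in WT sham. Arrays of number 2 were all above those of number 1, though the nearest only by 1003 against 1000. Within each number both UVA arrays were above both sham arrays. The difference was 0.51 (SE 0.05, limma adjusted p = 0.00788 with the culture block, 0.292 with the replicate block and 1 without a block), with ratios of 1.31 to 1.58 in the 4 pairs. By size of the UVA difference Gclm ranked 16, Gsr 20 and Gclc 27 of 22180 genes.

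Ggt5 (probe set 17234403), a gamma-glutamyl transferase that cleaves glutathione conjugates such as leukotriene C4 outside the cell, read 360 and 80 in KO UVA, 412 and 66 in KO sham, 295 and 82 in WT UVA, and 286 and 80 in WT sham. The arrays of number 2 were below the array median. The UVA difference was 0.04 (SE 0.09, 95% interval -0.17 to 0.25, limma adjusted p = 0.915 with the culture block), and 3 of 4 pairs were higher after UVA-1.

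Abcc4 (probe set 17309420), an exporter of cyclic nucleotides and prostaglandins that can carry glutathione along, read 1396 and 685 in KO UVA, 1120 and 567 in KO sham, 1333 and 739 in WT UVA, and 1013 and 675 in WT sham. Every pair was higher after UVA-1, and the difference of 0.28 (SE 0.06, 95% interval 0.14 to 0.42) did not pass the test (limma adjusted p = 0.0976 with the culture block). Abcc1 (probe set 17323138), an exporter of glutathione conjugates and oxidised glutathione, read 3924 and 2494 in KO UVA, 3568 and 2055 in KO sham, 3880 and 1670 in WT UVA, and 3717 and 1362 in WT sham. It too was higher in every pair, by 0.19 (SE 0.05, limma adjusted p = 0.165 with the culture block).

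**Figure D2:**
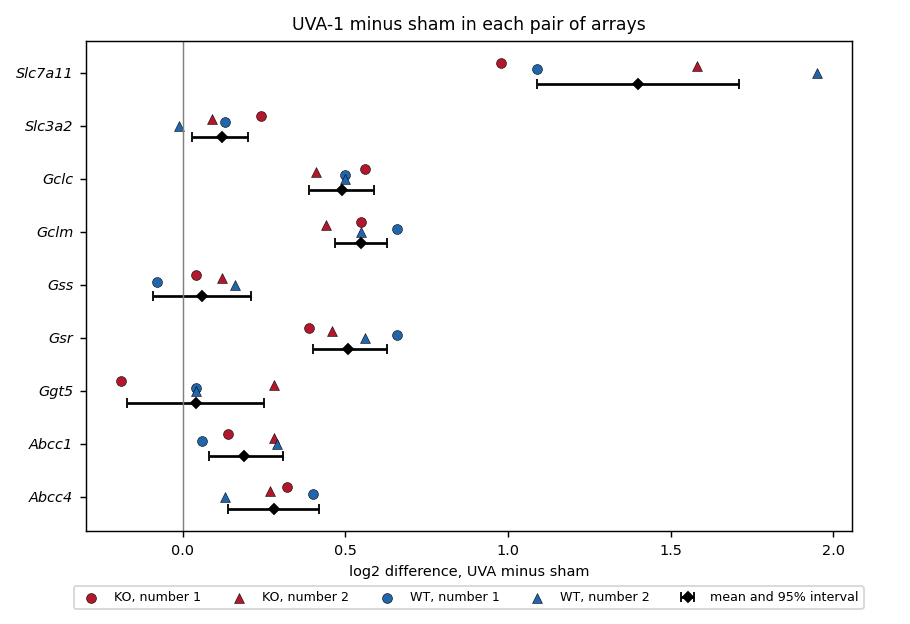
Log2 difference between the UVA and sham array of each genotype and replicate number (red KO, blue WT; circles number 1, triangles number 2) for the 9 genes, with the mean and its 95% interval from limma with the culture block (black). All 4 points lie right of 0 for Slc7a11, Gclc, Gclm, Gsr, Abcc1 and Abcc4, and the 4 points of Slc7a11 spread from 0.98 to 1.95.

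The UVA differences were also taken within each genotype. In KO cells the differences were 1.28 for Slc7a11, 0.50 for Gclm, 0.49 for Gclc and 0.42 for Gsr, and none passed with the culture block (limma adjusted p = 0.163, 0.0686, 0.117 and 0.239 in that order; percent called 0.00902). In WT cells the differences were 1.52 for Slc7a11, 0.60 for Gclm, 0.50 for Gclc and 0.61 for Gsr, and Gclm and Gsr passed (adjusted p = 0.011 and 0.0433) while Gclc and Slc7a11 did not (0.0519 and 0.0618), against 0.0541% of all genes called. The responses themselves were compared by the interaction, KO response minus WT response. It called no gene with any of the 3 fits (percent called 0.0; 294 genes, 1.33%, at an unadjusted p under 0.05 without a block, none of the 9 among them). With the culture block it was -0.24 for Slc7a11 (95% interval -0.87 to 0.39), -0.11 for Gclm (-0.28 to 0.06), -0.01 for Gclc (-0.21 to 0.18) and -0.19 for Gsr (-0.42 to 0.04), and all 4 intervals span both a smaller and a larger response in KO cells.

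KO was set against WT over both treatments to ask whether the pathway differed in autophagy deficient cells. Slc7a11, Gclc, Gclm, Gsr and Gss were higher in KO in all 4 pairs of 1 number and treatment, 5 of 9 genes where 7.65% of all genes showed that pattern, but none of the 9 passed the test in any fit. Without a block no gene passed (percent called 0.0; 517 genes, 2.33%, at an unadjusted p under 0.05, none of the 9). With the replicate block 7 genes were called (0.0316%), again none of the 9, and 4 of them had an unadjusted p under 0.05 with a higher level in KO, against 4.93% of all genes. That fit counts the 2 arrays of each culture as separate samples. With the mean of each culture and the replicate block, 2 of 9 remained under an unadjusted p of 0.05, against 1.94%. That fit has 1 residual degree of freedom. On culture means without the replicate block 0 of 9 had an unadjusted p under 0.05, against 1.16% of all genes in either direction.

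Slc7a11 was 0.38 higher in KO (SE 0.15, 95% interval 0.02 to 0.74, limma adjusted p = 0.548 with the replicate block), a 1.3-fold ratio. It was 0.37 in number 1 and 0.39 in number 2. The dim probe set gave 1.27-fold. Gclm was 0.27 higher in KO (SE 0.04, limma adjusted p = 0.247) and gave 0.27 in each number. Gsr was 0.26 higher (SE 0.07, limma adjusted p = 0.477), with 0.37 in number 1 and 0.15 in number 2. Gclc was 0.15 higher (SE 0.06, limma adjusted p = 0.548), with 0.20 in number 1 and 0.09 in number 2. For Gss all 4 KO arrays lay above all 4 WT arrays, as for 0.866% of all genes, though in 1 pair only by 514 against 513, and the difference was 0.14 (SE 0.08, limma adjusted p = 0.616), with 0.07 in number 1 and 0.22 in number 2. These SEs come from the fit that counts the 2 arrays of a culture as separate samples. On culture means with the replicate block, the 95% interval was 0.15 to 0.61 for Slc7a11 and 0.10 to 0.44 for Gclm. It spanned 0 for Gsr (-0.03 to 0.55), Gclc (-0.08 to 0.37) and Gss (-0.14 to 0.43). Without a block, leaving out 1 array moved the KO minus WT difference between 0.21 and 0.55 for Slc7a11 and 0.16 and 0.38 for Gclm. The range was 0.04 to 0.49 for Gsr, 0.04 to 0.25 for Gclc and 0.08 to 0.21 for Gss. That alternative unbalances the replicate numbers. With the replicate block kept, the range was 0.23 to 0.53 for Slc7a11, 0.25 to 0.29 for Gclm and 0.10 to 0.19 for Gclc. Without a block, the lowest value for Gsr came without WT sham of number 1 and the highest without WT sham of number 2. For Slc7a11 these 2 arrays gave the highest and the lowest value, in that order.

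The other 4 genes were not higher in KO in every pair. Their mean genotype difference had unlike values in the 2 numbers, as did that of Gsr, Gss and Gclc, and this contrast was not tested. Abcc1 was 0.28 higher in KO on average (SE 0.13, limma adjusted p = 0.577), with -0.02 in number 1 and 0.59 in number 2. Ggt5 differed by 0.41 in number 1 and -0.16 in number 2, Abcc4 by 0.11 and -0.18, and Slc3a2 by -0.02 and -0.23. On average Ggt5 differed by 0.13, Abcc4 by -0.04 and Slc3a2 by -0.13. Cell type markers differed with genotype as well. Of 12 melanocyte markers 11 were lower in KO, with a median difference of -0.15. Of 12 fibroblast markers 11 were higher in KO, with a median difference of 0.56, and their sums were alike in number 1 (51939 and 54999 in KO, 52233 and 53908 in WT) and apart in number 2 (21105 and 22812 in KO, 9286 and 10691 in WT). In number 1, where the sums were alike, KO minus WT was 0.37 for Slc7a11, 0.27 for Gclm, 0.37 for Gsr, 0.20 for Gclc, 0.07 for Gss and -0.02 for Abcc1. In number 2, where they were apart, it was 0.39 for Slc7a11, 0.27 for Gclm, 0.15 for Gsr, 0.09 for Gclc, 0.22 for Gss and 0.59 for Abcc1. The part of the marker difference in these values was not tested.

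**Figure D3:**
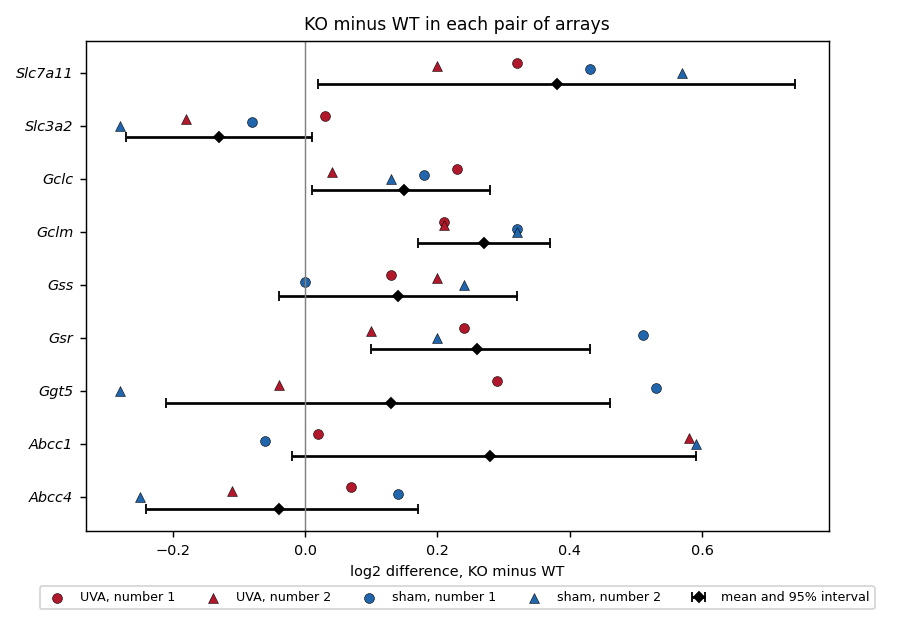
Log2 difference between the KO and WT array of each treatment and replicate number (red UVA, blue sham; circles number 1, triangles number 2) for the 9 genes, with the mean and its 95% interval from limma with the replicate block (black). That fit counts the 2 arrays of a culture as separate samples. On culture means with the replicate block, the intervals of Gsr and Gclc spanned 0 and those of Slc7a11 and Gclm did not. The 4 points of Slc7a11, Gclc, Gclm and Gsr lie right of 0, and those of Abcc1 split by number, 0.02 and -0.06 in number 1 and 0.58 and 0.59 in number 2 (UVA and sham arrays).

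The replicate numbers differed more than either treatment or genotype for several of the genes. The 4 arrays of a number lay apart from the 4 of the other for 5 of 9 genes (55.6%), against 32.1% of all genes. For Slc3a2 and Gsr the nearest arrays were apart only by 7107 against 7103 and by 1003 against 1000. Ggt5 was 4.36-fold, Abcc1 2.04-fold and Abcc4 1.82-fold higher in number 1, and Gsr was 1.67-fold and Slc3a2 1.21-fold higher in number 2. The median absolute difference between numbers was 0.39 for the 9 genes and 0.14 for all genes. Melanocyte marker sums were 58535 to 62541 in number 1 and 91206 to 107963 in number 2, and the fibroblast sums ran the other way. What share of the number difference goes with these markers was not tested.

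**Figure D4:**
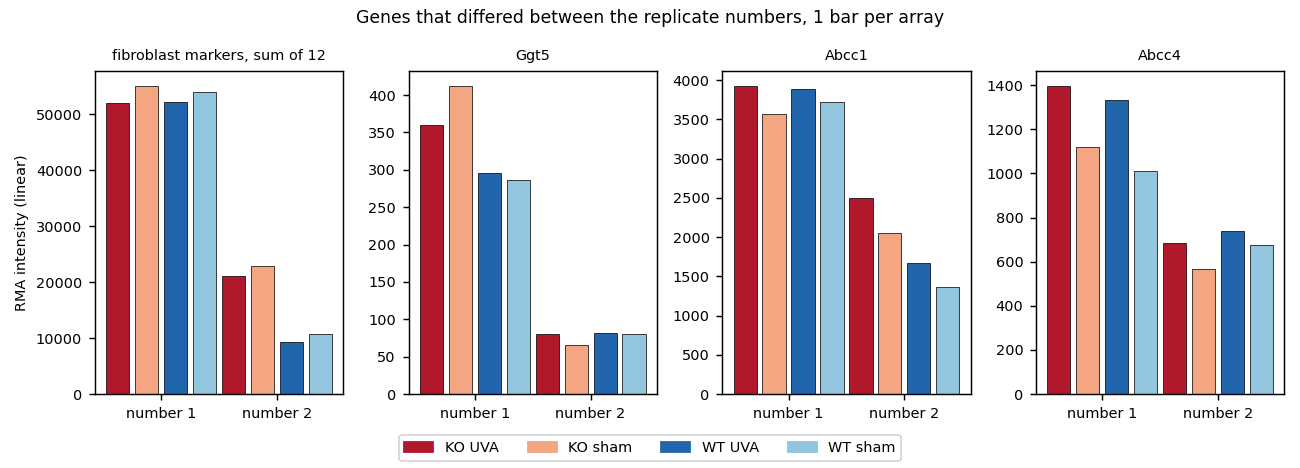
Summed intensity of 12 fibroblast markers and intensity of Ggt5, Abcc1 and Abcc4 (linear axes from 0) on each array, 1 bar per array, grouped by replicate number and coloured by group. All 4 quantities were higher on every array of number 1 than on any array of number 2; the fibroblast sum was 9286 to 22812 in number 2.

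The wider pathway was described with lists of related genes. With the culture block, 0 of 10 measured genes that supply cystine or cysteine, 0 of 9 that supply glutamate or glycine, 0 of 11 that break glutathione down, 0 of 9 that export it or import it into mitochondria, and 0 of 8 that break cysteine down were called after UVA-1. Their median UVA differences were 0.05, -0.04, -0.02, -0.05 and 0.00, where the median of all genes was 0.00 and that of the 9 genes 0.28. Among these genes Slc38a2, a glutamine transporter, read 4648 and 4653 in KO UVA, 4154 and 3834 in KO sham, 4605 and 3820 in WT UVA, and 4182 and 3845 in WT sham, and differed by 0.14 after UVA-1 (SE 0.04, limma adjusted p = 0.199). Anpep, an aminopeptidase that cleaves the dipeptide left after glutathione breakdown, differed by 0.28 (SE 0.08, limma adjusted p = 0.183), and Abcg2, an exporter, by -0.18 (limma adjusted p = 0.307).

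For 12 reductases and peroxidases that use glutathione or act beside it, the median UVA difference was -0.03. With the culture block 1 rose after UVA-1 and none fell, against 0.437% of all genes called in either direction. It was Txnrd1, thioredoxin reductase, which read 4903 and 3875 in KO UVA, 3876 and 2691 in KO sham, 4774 and 3599 in WT UVA, and 3830 and 2385 in WT sham (difference 0.44, SE 0.05, limma adjusted p = 0.0222). Glrx, glutaredoxin, differed by -0.21 after UVA-1 (limma adjusted p = 0.215).

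The regulators and reference targets of NRF2 held 11 measured genes. All 11 had positive UVA differences, where 50.9% of all genes did, with a median of 0.31. With the culture block 5 of them rose and none fell, against 0.239% of all genes called higher. The 5 were Nqo1, Hmox1, Txnrd1, Osgin1 and Pgd (limma adjusted p = 0.00383, 0.00649, 0.0222, 0.0325 and 0.0222 in that order). Nqo1, a quinone reductase, read 1810 and 3907 in KO UVA, 1382 and 2657 in KO sham, 1058 and 1695 in WT UVA, and 636 and 979 in WT sham. Hmox1, the haem-degrading enzyme, read 12063 and 10833 in KO UVA, 8823 and 8495 in KO sham, 11908 and 8855 in WT UVA, and 9142 and 5912 in WT sham. The differences were 0.62 for Nqo1, 0.44 for Hmox1, 0.41 for Osgin1 and 0.31 for Pgd, a pentose phosphate enzyme named after its values were seen. Each of these calls was lost when any 1 culture was left out.

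ATF4 and its reference targets held 11 measured genes, none of which was called after UVA-1, with a median difference of 0.07. Sesn2, a stress-induced regulator of growth signalling, differed by 0.34 (SE 0.07, limma adjusted p = 0.097 with the culture block). It read 693 and 589 in KO UVA, 608 and 497 in KO sham, 598 and 530 in WT UVA, and 492 and 336 in WT sham. Ddit4 and Ddit3 differed by 0.27 and 0.23 (limma adjusted p = 0.112 and 0.109). Slc7a5, an importer of large neutral amino acids that shares the heavy chain Slc3a2 with Slc7a11, differed by -0.01 (limma adjusted p = 0.912).

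In KO against WT with the replicate block, 1 gene of all these lists was called, against 0.0316% of all genes. Nqo1 rose by 1.13 in KO (SE 0.09, limma adjusted p = 0.0189). That fit counts the 2 arrays of a culture separately; on culture means with the replicate block no gene was called (smallest limma adjusted p of all genes 0.989), and leaving out any 1 array also left 0 calls. The NRF2 list had 9 of 11 positive differences with a median of 0.12, against 0.15 for the 9 genes and -0.01 for all genes. The medians of the other lists ranged from -0.15 for the other SLC7 transporters to 0.10 for glutathione breakdown, and that of the ATF4 list was 0.01. Dpep1, a dipeptidase that cleaves the cysteinyl-glycine left after glutathione breakdown, read 6373 and 493 in KO UVA, 6917 and 515 in KO sham, 5647 and 193 in WT UVA, and 5491 and 217 in WT sham. It differed by 0.78 between genotypes (limma adjusted p = 0.469), and far more between numbers, as the fibroblast sums did. Sqor, a mitochondrial sulfide oxidase, differed by 0.69 (limma adjusted p = 0.452), Glrx by 0.61 (0.41) and Anpep by 0.45 (0.413). Sesn2 differed by 0.31 (0.468) and Cth, which makes cysteine from cystathionine, by 0.22 (0.553). The median of the fibroblast markers was 0.56, and the part of the marker difference in the values of these genes and of Dpep1 was not tested.

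**Figure D5:**
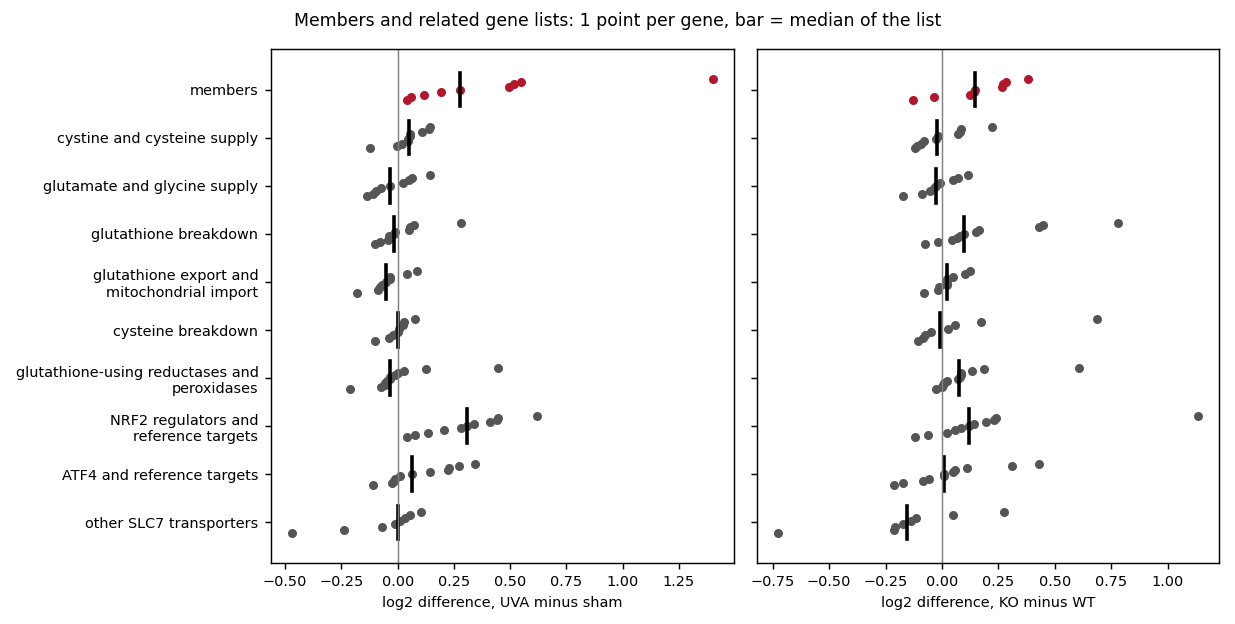
Log2 differences of the 9 genes (red) and of the genes of 9 related lists (grey), 1 point per gene, with the median of each list as a black bar; the left panel shows UVA minus sham and the right panel KO minus WT. In the left panel the medians of the 9 genes (0.28) and of the NRF2 list (0.31) stand to the right of those of the other 8 lists, which lie between -0.05 and 0.07.

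The genes whose pattern over the 8 arrays was most like that of 3 of the genes were found after the mean of each replicate number was subtracted. For Slc7a11 they were Tbcel (Pearson r = 0.991), Txnrd1 (0.989) and Psme4 (0.984). For Gclc they were Bach1 (0.986), Ehbp1l1 (0.984) and Hspa1a (0.983), and for Gclm they were Sqstm1 (0.995), Taldo1 (0.992) and Rela (0.986). Among the 9 genes, Gclc and Gclm correlated at 0.975, Gclm and Gsr at 0.975, Slc7a11 and Gclc at 0.938 and Slc7a11 and Slc3a2 at 0.241. These correlations are descriptions over 8 arrays that share the same treatment and culture contrasts.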

How the data were processed

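RNA of 8 mouse melanocyte samples was hybridised to 1-colour Affymetrix arrays. The deposited intensity values, 1 per probe set and array, were made by the authors with RMA in Affymetrix Expression Console 1.3.1.187, per the submitters' processing notes; they are linear and whole (7 to 22585), so log2 was taken here. The genome build is not given in the sources used here. RMA equalises the arrays' distributions, so a shift of most transcripts would not be seen, and rounding coarsens dim values. Of 41345 probe sets 23521 had a single symbol; the one with the highest mean was used for each of 22180 genes. With 2 arrays a group, precision is set by their number.

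limma 3.58.1 (R 4.3.3) fitted 1 mean per group over 8 arrays, eBayes with a trend, two-sided, Benjamini-Hochberg over all genes, threshold 0.05. The script was tested on simulated data. As a check of pairing, the arrays' deviations from their group's mean were correlated between groups (0.80 to 0.92 in 6 pairs of groups), so replicate numbers were taken to pair the arrays, from the shared numbers and the data; there are only 2 numbers. Fits with the replicate number or the culture (genotype and number) as a block, culture means, centring, a dim-gene filter, averaged probe sets, no trend and left-out arrays were alternatives; left-out cultures were added after seeing the data. The genes and lists were chosen with earlier results of these data known. All 9 genes are named; of each list up to 4, those past the test, then those with the largest differences at an unadjusted p under 0.05 with the replicate block. Sequences are from RefSeq, GRCm38.p6.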

Additional observations from a re-analysis of the deposited data

How the results depend on the processing

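Without a block no gene was called in any of the 7 comparisons, and the same held after centring, filtering dim genes, averaging probe sets, dropping the trend or leaving out an array. The replicate block called 7 genes for KO against WT, 3 for UVA against sham, 2 for UVA in KO and 1 for UVA in WT. The culture block called 97 for UVA against sham, 2 for UVA in KO and 12 for UVA in WT. With the replicate block, leaving out 1 array gave 0 to 2 calls for UVA against sham; with the culture block, leaving out 1 culture gave 0, with 1 residual degree of freedom left.

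The 9 genes' differences were recomputed 639 times: 557 kept direction and side of the threshold, 5 passed the threshold with the replicate or culture block, and 77 reversed, all with an array or culture left out. Without 1 array, KO minus WT ran from -0.54 to 0.79 for Ggt5, -0.08 to 0.64 for Abcc1 and -0.29 to 0.22 for Abcc4. Without 1 array or culture, UVA minus sham ran from -0.01 to 0.13 for Gss, -0.62 to 0.70 for Ggt5 and -0.17 to 0.56 for Abcc1. The interaction ran from -0.57 to 0.09 for Slc7a11, -0.12 to 0.33 for Slc3a2, -0.22 to 0.19 for Gclc, -0.33 to 0.11 for Gclm, -0.08 to 0.18 for Gss, -0.64 to 0.27 for Gsr, -1.32 to 1.32 for Ggt5, -0.69 to 0.75 for Abcc1 and -0.48 to 0.55 for Abcc4. Dropping an array without a block unbalances the replicate numbers, by the construction of that alternative. For Abcc1, KO minus WT and UVA minus sham reversed only there. With the replicate block and 1 array left out they ran from 0.14 to 0.42 and from 0.05 to 0.33. With 1 culture left out, UVA minus sham of Abcc1 ran from 0.14 to 0.25. For Abcc4, KO minus WT still reversed in 3 of 8 fits with the replicate block (-0.13 to 0.05). Groups of 2 arrays, and the low intensity of Ggt5 in number 2 and of the second Slc7a11 probe set, limit what can be resolved.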

Other observations

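The list of other SLC7 transporters, relatives of Slc7a11 that carry other amino acids, held 8 measured genes. Slc7a9 was not among them, being in the list of genes that supply cystine or cysteine. The 8 genes had no calls with the replicate block for KO against WT or with the culture block for UVA against sham. Their median difference was -0.15 for KO minus WT, with 2 of 8 positive against 45.8% of all genes. For UVA minus sham 4 of 8 were positive, against 50.9% of all genes. Slc7a8, an importer of neutral amino acids, read 506 and 821 in KO UVA, 491 and 954 in KO sham, 618 and 1885 in WT UVA, and 603 and 2083 in WT sham, and differed by -0.73 between KO and WT (SE 0.18, limma adjusted p = 0.417 with the replicate block). Slc7a2, an importer of cationic amino acids, read 719 and 249 in KO UVA, 1093 and 285 in KO sham, 752 and 262 in WT UVA, and 979 and 425 in WT sham, lower after UVA-1 in every pair, with a difference of -0.47 (SE 0.08, limma adjusted p = 0.0664 with the culture block).

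Of 12 melanocyte markers, Ednrb, the endothelin receptor of pigment cells, rose by 0.50 after UVA-1, and Mc1r, the melanocortin receptor, fell by 0.30 (limma adjusted p = 0.0347 for each with the culture block). Of 12 fibroblast markers, Pdgfrb fell by 0.28 (limma adjusted p = 0.0485), and the list's median UVA difference was -0.10. These 3 genes are named because they were the calls of their lists, after their values were seen. The same fit called 0.437% of all genes. All 3 calls were lost when any 1 culture was left out.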
